A study of Mus musculus with 8 samples.

Results

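Calprotectin is the heterodimer of S100a8 and S100a9, calcium-binding proteins that make up much of the cytosol of neutrophils, and its level in stool is a clinical measure of gut inflammation. The 8 genes described here are S100a8, S100a9 and 6 other genes of neutrophils, Csf3r, Retnlg, Lcn2, Ngp, Camp and Mmp9, read from 52143 rows of RNA-Seq values of mouse colon by gene symbol. S100a8 and S100a9 were listed because their values in the Siglec-XII and control groups were already known, and the other 6 genes were listed to ask whether they moved with this pair from sample to sample. For this reason the group differences of the 8 genes are given as a description, without a test. Of the 8 genes, 3 (S100a8, S100a9 and Lcn2) reached a TPM (transcript abundance, scaled to the same sum in each sample) of 1 in at least 4 of the 8 samples, the limit for the test across genes, and 5 did not.

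Siglec-XII is the product of human SIGLEC12, a receptor of the sialic acid-binding Siglec family. Siglec-XII mice (SIGLEC12-Villin1-Cre-ERT, 4 samples) carried a floxed SIGLEC12 knockin at ROSA26 and a tamoxifen-dependent Cre driven by the Villin1 promoter, which is active in intestinal epithelium and not in leukocytes. Control mice (Villin1-Cre-ERT, 4 samples) carried the Cre alone, and both groups, 8-week-old female mice, received tamoxifen (10 mg/ml) for 5 days. Distal colon was collected 7 days after the last injection, on day 12. The design text speaks of 3 mice per condition and the labels list 4 samples, and the Methods mention technical replicate libraries made from each sample. It is therefore not known from these sources whether each of the 4 was a separate mouse, and the SDs and P values below measure the spread between samples, which may be technical. The transgene was not analysed here, so the group labels could not be checked against it.

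A neutrophil matures in the bone marrow, fills its primary, secondary and tertiary granules in that order, and enters the tissue from blood along gradients of chemokines that bind Cxcr2. Granule genes such as Ngp and Camp are transcribed mostly in marrow precursors, whereas S100a8, S100a9, Csf3r and Retnlg remain abundant as RNA in circulating cells. S100a8 and S100a9 are also made by monocytes and by squamous epithelium under stress, and Lcn2 by inflamed colon epithelium, so neither is exclusive to neutrophils. All values are from whole tissue, in which fewer cells of a type and less RNA per cell cannot be told apart.

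S100a8 (ENSMUSG00000056054) and S100a9 (ENSMUSG00000056071) lie 22596 bases apart on chromosome 3 of GRCm38, at 90668978 to 90670035 on the plus strand and 90692632 to 90695721 on the minus strand. Since their values ran together across the samples, the sequence from 250 bases before each RefSeq gene start (90669071 for S100a8, which lies inside the GENCODE gene, and 90695721 for S100a9) is shown, as far as it lies outside annotated exons. It is from RefSeq on GRCm38.p6 (chr3:90668821-90668977, plus strand, and chr3:90695722-90695971, minus strand). Capitals mark, on either strand, the letters TTNCNNAA (a short form of the C/EBP motif) or GAGGAA (a short form of the PU.1 motif), after 2 transcription factors of the granulocyte lineage.
S100a8: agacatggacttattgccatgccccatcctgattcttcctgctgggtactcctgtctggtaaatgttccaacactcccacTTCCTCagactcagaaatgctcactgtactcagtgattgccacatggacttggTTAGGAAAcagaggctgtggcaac
S100a9: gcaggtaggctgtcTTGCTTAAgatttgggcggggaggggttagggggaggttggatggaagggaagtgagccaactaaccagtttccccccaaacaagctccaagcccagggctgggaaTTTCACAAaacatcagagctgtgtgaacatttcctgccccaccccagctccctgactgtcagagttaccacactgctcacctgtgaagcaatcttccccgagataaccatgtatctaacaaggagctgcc

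Counted from the RefSeq starts, the C/EBP letters stood at -117 for S100a8 and at -236 and -130 for S100a9, and the PU.1 letters at -170 for S100a8, with a further match at -36, past the printed stretch. Windows from 250 bases before to 50 bases after the start were found for 7 of the 8 genes, and the C/EBP letters were in 5 of these and in 40.7% of 32851 such windows of the genome. The PU.1 letters were in 3 (S100a8, Csf3r and Lcn2) against 28.3% of all windows, and the NF-kB motif in 3 (Csf3r, Lcn2 and Camp) against 50.8%. The TATA box letters TATAAA were in 2 against 13.6%, at -30 in S100a8 and at the RefSeq start itself (0) in S100a9. The 8-letter PU.1 form GAGGAAGT, which contains the shorter one, was in S100a8 alone against 3.2%. The full C/EBP palindrome TTGCGCAA (0.183% of all windows), which is also a match of the shorter form, and the STAT letters TTCNNNGAA (8.3%) had no match in the 7 windows. Both strands were searched, and a match is a description of the letters only.

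The authors deposited log2(TPM + 1), the scale of all levels and differences below unless TPM is named. TPM keeps no read depth, so no counting error can be given, and the scale understates the fold-change of low genes. Between 12748 and 13715 genes per sample were at a TPM of at least 1, and the 10 highest genes held 11.5% to 20.6% of the TPM. Siglec-XII minus control, the median difference of all genes tested was -0.15, and 78.1% of them were below 0. With limma, 5 of 13164 genes (0.038%) had an adjusted P of at most 0.05, of which none was lower in Siglec-XII. At unadjusted P of at most 0.05, 1010 genes (7.67%) were lower and 157 (1.19%) higher, 8.87% in all, a split that turned to 285 lower and 1137 higher after median centring and to 408 and 704 after quantile normalization. The 10 markers of colon epithelium were high in all samples (summed TPM 8332 to 11854), as the tissue label has it. Control 1, followed by Control 4, stood apart by markers of squamous epithelium, described below.

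No Siglec-XII sample reached the lowest control value of S100a8 or of S100a9. S100a8 was at 9.61, 22.4, 11.9 and 40.9 TPM in Control 1 to 4 and at 4.03, 1.38, 0.957 and 3.09 TPM in Siglec-XII 1 to 4. S100a9 was at 13.6, 55.7, 17.2 and 89.1 TPM in Control 1 to 4 and at 3.64, 4.80, 1.25 and 5.39 TPM in Siglec-XII 1 to 4. The highest values of both genes were in Control 4 and Control 2, in that order, and the groups did not overlap in either gene. On the log2 scale S100a8 was 4.26 ± 0.90 in controls and 1.65 ± 0.64 in Siglec-XII (SD, n = 4 each), a difference of -2.61 with a standard error of 0.55. S100a9 was 5.09 ± 1.27 and 2.15 ± 0.68 (SD, n = 4 each), a difference of -2.94 with a standard error of 0.72. In TPM, the control mean was 8.97 times the Siglec-XII mean for S100a8 and 11.6 times for S100a9. A separation of the groups with Siglec-XII lower was found in 2 of the 8 members and in 2.97% of the 31352 genes above 0 in a sample (4.06% of the genes tested), but the pair was listed for this contrast and nothing is read from that count. S100a8 reached the limit of 1 TPM in 7 samples and S100a9 in 8.

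The pair kept its direction whichever sample was left out, with differences from -2.90 to -2.24 for S100a8 and from -3.35 to -2.48 for S100a9. Without Siglec-XII 3 and 4, the samples whose median gene was lowest, the differences were -2.47 and -2.72, and after median centring -2.40 and -2.73. Without Control 2 and 4 they were -1.90 and -1.88, and Control 1 and Control 3 alone were still above all Siglec-XII samples. The partners also ran together within the groups. Across the 8 samples their correlation was r = 0.97 (Spearman rho = 0.93), and it was 0.86 after the group means were subtracted. The points share their libraries and their scale, so this is a description of 8 samples. The TPM ratio of S100a9 to S100a8 ran from 0.904 in Siglec-XII 1 to 3.47 in Siglec-XII 2, and was 1.41 to 2.49 in controls, inside that range. No window of 31 bases in either transcript occurs in another gene.

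**Figure D1:**
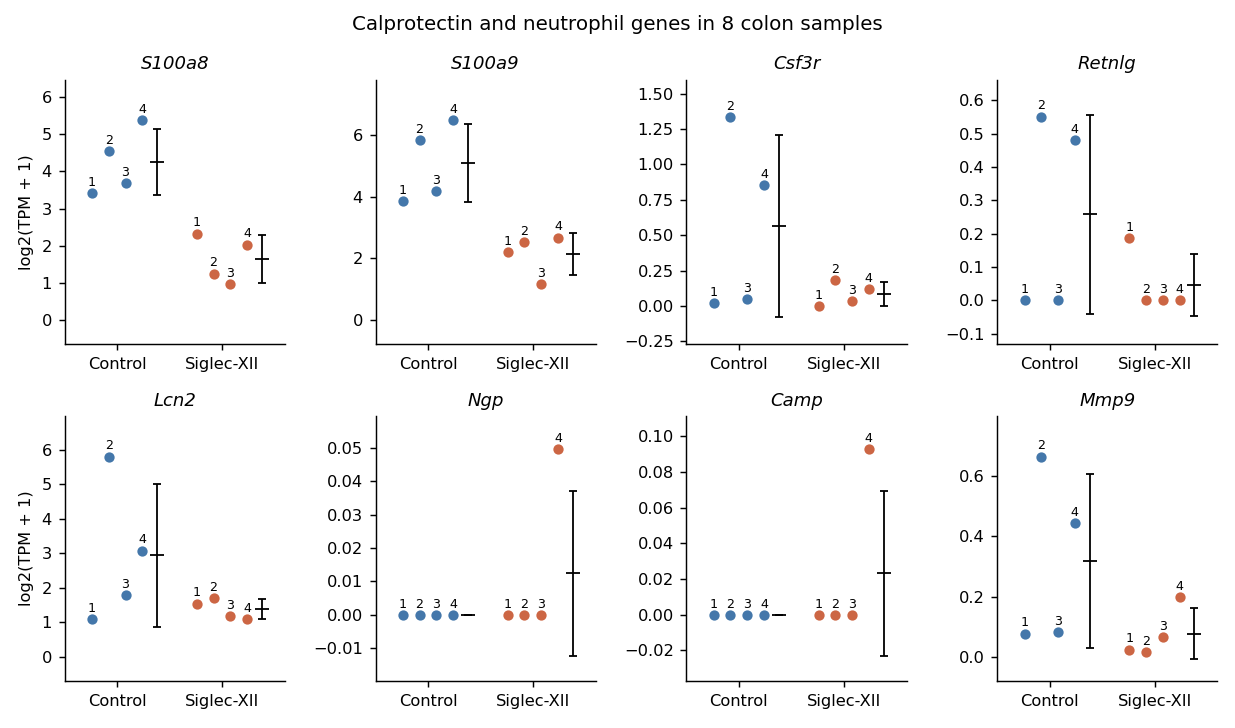
Values of the 8 genes as log2(TPM + 1) on the vertical axis, with its own range in each panel, for the 4 Control and 4 Siglec-XII samples on the horizontal axis, where digits number the samples within a group and bars give the mean ± SD. S100a8 and S100a9 separate the groups, whereas Csf3r, Retnlg, Lcn2 and Mmp9 are high in Control 2 and Control 4 and low in Control 1 and Control 3, and Ngp and Camp are above 0 in Siglec-XII 4 alone.

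The other 6 genes did not separate the groups, and 4 of them were high in 2 control samples and low in the other two. Csf3r (ENSMUSG00000028859, chromosome 4, 126024550 to 126044440), the receptor of the granulocyte colony-stimulating factor that drives neutrophil production, was at 0.02, 1.33, 0.05 and 0.85 in Control 1 to 4. In Siglec-XII 1 to 4 it was listed at 0 and at 0.18, 0.04 and 0.12. Control 1 and Control 3 therefore lay within the range of the Siglec-XII samples, and Control 2 and Control 4 above it. The difference was -0.48 (standard error 0.32), and 0.05 without Control 2 and 4. Of the 31-base windows of Csf3r, 23.1% occur in another gene, mainly AC105061.2 (19.9%), so its reads could have been divided between loci.

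Retnlg (ENSMUSG00000022651, chromosome 16, 48872621 to 48874496) encodes a small secreted protein of the resistin family that marks circulating mouse neutrophils. It was listed at 0 in 5 samples and was above 0 in Control 2 (0.55), Control 4 (0.48) and Siglec-XII 1 (0.19). As for Csf3r, Control 2 and Control 4 were the highest samples. The difference was -0.21 (standard error 0.16), and 0.05 without Control 2 and 4.

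Lcn2 (ENSMUSG00000026822, chromosome 2, 32384633 to 32388252) encodes lipocalin-2, which binds bacterial siderophores and is released by neutrophil granules and by epithelium. It was the most abundant of the 6, at 1.09, 5.80, 1.80 and 3.08 in Control 1 to 4 and at 1.54, 1.70, 1.19 and 1.08 in Siglec-XII 1 to 4. Control 2 was far above the rest, at 54.8 TPM, and Control 4 followed, whereas Control 1 was lower than all but Siglec-XII 4. The difference of -1.56 had a standard error of 1.05, was -0.61 without Control 2 alone, and was -0.06 without Control 2 and 4.

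Mmp9 (ENSMUSG00000017737, chromosome 2, 164940780 to 164955850) encodes gelatinase B, the collagenase of the tertiary granules. It was at 0.08, 0.66, 0.08 and 0.44 in Control 1 to 4 and at 0.02, 0.02, 0.07 and 0.20 in Siglec-XII 1 to 4. Siglec-XII 4 was above Control 1 and Control 3, and the difference of -0.24 (standard error 0.15) was -0.0034 without Control 2 and 4. Ngp (ENSMUSG00000032484, chromosome 9, 110419747 to 110423012) and Camp (ENSMUSG00000038357, chromosome 9, 109847379 to 109849617) encode secondary granule proteins, the latter the precursor of the antimicrobial peptide cathelicidin. Both were listed at 0 in 7 samples, and in Siglec-XII 4 they were at 0.05 and 0.09. These 2 genes gave no comparison at this level.

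To ask whether the 6 genes moved with calprotectin, each was set against the mean of S100a8 and S100a9 in the 8 samples. The correlation was r = 0.75 for Csf3r (rho = 0.52), 0.77 for Retnlg (rho = 0.60), 0.69 for Lcn2 (rho = 0.60), 0.77 for Mmp9 (rho = 0.83) and -0.22 for both Ngp and Camp (rho = -0.08). Their median was 0.72, and 0.65 after the group means were subtracted. Control 2 and Control 4 are the samples farthest from the median of calprotectin. Without them, over 6 samples, r was -0.25 for Csf3r, -0.12 for Retnlg, 0.20 for Lcn2 and 0.15 for Mmp9, with a median over the 6 genes of -0.08, so the relation of these 6 members rested on the 2 control samples. Between the Siglec-XII samples and Control 1 and 3, S100a8 and S100a9 were -1.90 and -1.88 apart, and Csf3r, Retnlg, Lcn2 and Mmp9 were between -0.06 and 0.05 apart. In Control 1 and 3, Csf3r was at 0.014 and 0.036 TPM, Retnlg at 0 in both, and Mmp9 at 0.055 and 0.059 TPM. A decrease of these genes from Control 1 and 3 could therefore not be seen. Only Lcn2, at 1.13 and 2.47 TPM there, had room for one.

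**Figure D2:**
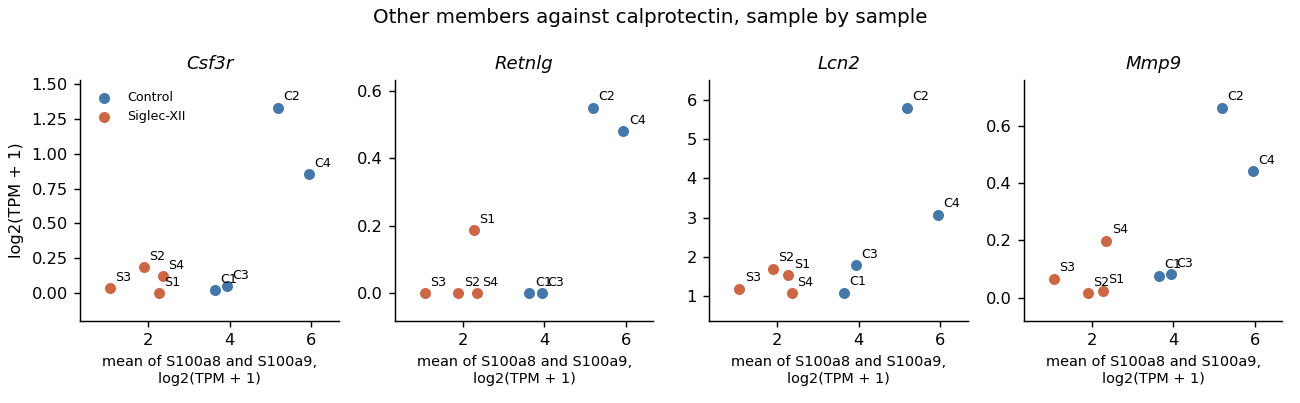
Csf3r, Retnlg, Lcn2 and Mmp9 on the vertical axes against the mean of S100a8 and S100a9 on the horizontal axis, all as log2(TPM + 1), with 1 point for each Control (C1 to C4) and Siglec-XII (S1 to S4) sample. C2 and C4 sit at the upper right, while C1 and C3 are at the level of the Siglec-XII samples on the vertical axes although they are to the right of them.

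Retnlg, Lcn2 and Mmp9 ran more closely with Csf3r than S100a8 and S100a9 did. With Csf3r, r over the 8 samples was 0.92 for Retnlg, 0.96 for Lcn2 and 0.97 for Mmp9, against 0.69 for S100a8 and 0.79 for S100a9. After the group means were subtracted these were 0.90, 0.95 and 0.96 against 0.59 and 0.79. Control 2 was above Control 4 in Csf3r, Retnlg, Lcn2 and Mmp9 and below it in S100a8 and S100a9. In 6 of the 8 members, Control 2 and Control 4 were the 2 highest samples, a pattern seen in 7.07% of the 31352 genes above 0 in a sample and in 10.1% of the genes tested. The pattern was picked from the values of these members, S100a8 and S100a9 among them, so nothing is read from that count.

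Among the 13164 genes tested, those with values most like the mean of S100a8 and S100a9 were Gm7072 (r = 0.96), Snx11 (0.95), Mtcp1 (0.95), Il3ra (0.95), Gm45062 (0.94), Olfm1 (0.94), Fam193b (0.94), Ubxn2b (0.94), Thnsl1 (0.93) and 4632415L05Rik (0.93). After the group means were subtracted they were Uxs1 (0.98), Wsb1 (0.96), Rnpc3 (0.95), Gnpnat1 (0.95), Lysmd3 (0.94), Ddit3 (0.94), Akr1c18 (0.94), Cblc (0.94), Erlin1 (0.94) and Snora31 (0.94). None of these 20 was on a list of neutrophil genes, and they are the extremes of 13164 genes over 8 samples. Lcn2, the only other member tested, ranked 897 over the samples and 1214 after the group means were subtracted.

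A list of 64 further genes of mouse neutrophils, chosen by role, was then read in the same samples. Of these, 61 were above 0 in a sample and 27 passed the filter. None of the 27 reached an adjusted P of 0.05 with limma, where the lowest was 0.515. At unadjusted P, 3 were lower in Siglec-XII and none was higher, against 7.67% and 1.19% of all genes tested, and the median difference of the 27 was -0.10, against -0.15 for all genes tested. The 3 genes were Ltf, Il1f9 and Srgn. This count rested on single samples. It was 8 without Control 3, 6 without Siglec-XII 2 and 1 without Siglec-XII 4, 4 without Control 4 (of which 3 were higher in Siglec-XII), and 3 without Control 2 and 4 (Hp, Wfdc21 and Stfa1, all higher). With no filter, 8 were lower and none higher. After median centring or quantile normalization Ltf and Il1f9 were lower and Il1rn was higher.

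Primary granule genes, which are transcribed in promyelocytes of the marrow, were at or near 0. Elane and Ms4a3 were listed at 0 in every sample, and no value of Mpo, Prtn3, Ctsg or Prss57 exceeded 0.40. Prtn3 was highest in Siglec-XII 3 (0.40) and Mpo in Control 2 (0.11).

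In the 10 genes of secondary and tertiary granules, 5 passed the filter and 1 was lower at unadjusted P. This was Ltf, lactoferrin, an iron-binding protein that glandular epithelium also secretes. Ltf was at 6.82, 8.14, 3.77 and 7.97 in Control 1 to 4 and at 4.40, 5.41, 3.70 and 3.48 in Siglec-XII 1 to 4. It was high in Control 1 as well as in Control 2 and Control 4, while Control 3 lay within the Siglec-XII range. The difference was -2.43 (standard error 0.903, adjusted P = 0.515 with limma). Arg1, arginase-1, was -2.05 apart at an adjusted P of 0.515 with limma, and was also highest in Control 1 (10.19). Pglyrp1 (9.01 to 9.27), a peptidoglycan recognition protein, and Cd177 (4.82 to 6.46), a surface protein of granules, were abundant in all 8 samples, in which Ngp and Camp were at or near 0. Adam8 (chosen after its values were seen), a protease of leukocytes, had the profile of Csf3r, with 2.57 in Control 2, 1.83 in Control 4 and 0.35 to 0.91 in the other 6 samples.

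Among genes of the phagocyte oxidase, which makes superoxide, Cyba (-0.10) and Rac2 (0.03) differed by less than their standard errors (0.102 and 0.374). Cybb, the catalytic subunit, was highest in Control 2 (2.09) and was 0.15 to 0.82 elsewhere.

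Of 22 receptors and surface proteins 4 passed the filter, and none was called. Ly6g, the surface marker by which mouse neutrophils are usually sorted, was at 7.92 to 8.36 in controls and at 7.85 to 8.48 in Siglec-XII, with a difference of 0.02 (standard error 0.144). It was thus abundant in samples in which Csf3r was at 0.02 or listed at 0. Of the 31-base windows of Ly6g 9.55% occur in another gene, most often in Ly6i (4.39%). Il1rn, the interleukin-1 receptor antagonist, was at 6.26 to 6.87, and Il1r2, the decoy receptor, at 2.35 to 4.65. Cxcr1 was listed at 0 in every sample. In 9 of the 22 genes Control 2 and Control 4 were the highest samples: the chemokine receptor Cxcr2, the formyl peptide receptors Fpr1 and Fpr2, Trem1, Trem3, the lectins Clec4d and Clec4e, the Fc receptor Fcgr3, and C5ar1. Cxcr2 was at 1.21 in Control 2 and 0.73 in Control 4, compared with 0.19 and 0.29 in the other controls and 0.06 to 0.28 in Siglec-XII. Clec4d was at 1.48 and 0.59 in these controls and at 0.04 to 0.19 in the other 6 samples. All 9 genes were below the filter, and they were named after their values were seen. In 3 of the 22 genes, also below the filter, every Siglec-XII sample was below every control, as in S100a8 and S100a9. These were C5ar1, the receptor of complement C5a, at 0.28 to 0.60 in controls and 0.15 to 0.21 in Siglec-XII, the Fc receptor Fcgr4 (0.18 to 0.50 and 0 to 0.14) and Ptafr, the receptor of platelet-activating factor (0.17 to 0.82 and 0.06 to 0.15). With the mean of S100a8 and S100a9, their r over the 8 samples was 0.84, 0.69 and 0.70, and 0.90, 0.67 and 0.64 without Control 2 and 4. After the group means were subtracted, r was 0.52, 0.12 and 0.28. The 3 genes were picked for a separation of the groups that the pair also has. That choice by itself raises r wherever the group means are kept, so nothing is read from those values. These genes are 3 of the 61 list genes above 0, and 2.97% of all genes above 0 had this separation.

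Among 20 other genes of neutrophils 15 passed the filter, 2 were lower at unadjusted P and none was higher. Il1f9, an interleukin-1 family cytokine of epithelia and myeloid cells, was at 4.67, 3.03, 1.51 and 3.88 in Control 1 to 4 and at 1.27, 2.22, 0.83 and 1.24 in Siglec-XII 1 to 4. The difference was -1.88 (standard error 0.611, adjusted P = 0.515 with limma), with Control 1 the highest sample and Control 3 below Siglec-XII 2. Srgn, serglycin, the proteoglycan of leukocyte granules, was at 2.05, 4.20, 1.35 and 2.99 in Control 1 to 4 and at 1.33, 1.22, 1.82 and 1.28 in Siglec-XII 1 to 4, with -1.23 between the group means (standard error 0.525, adjusted P = 0.515 with limma). Srgn followed the profile of Csf3r, with Control 2 first and Control 4 second. So did Il1b (chosen after its values were seen), interleukin-1 beta, which was at 3.09 in Control 2 and 1.72 in Control 4, 0.48 and 0.28 in the other controls, and 0.13 to 0.38 in Siglec-XII. Hdc, histidine decarboxylase, and Acod1, which makes itaconate, had the same order (1.71 and 1.18, and 1.67 and 0.50, against at most 0.24 and 0.06 elsewhere). With Csf3r, r over the 8 samples was 0.98 for each of Il1b, Hdc, Cxcr2, Fpr2 and Adam8. These genes were picked because Control 2 and Control 4 were their highest samples, as in Csf3r, so nothing is read from this r. With the mean of S100a8 and S100a9 and without Control 2 and 4, r was 0.69 for Il1b and 0.55 for Cxcr2. On the same measure it was -0.06 for Hdc, -0.33 for Fpr2 and -0.24 for Adam8. The stefin Stfa3 (4.63 to 7.94), Slpi (6.24 to 7.52) and Msrb1 (6.62 to 6.88) were abundant in all samples and did not follow the pair of controls.

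**Figure D3:**
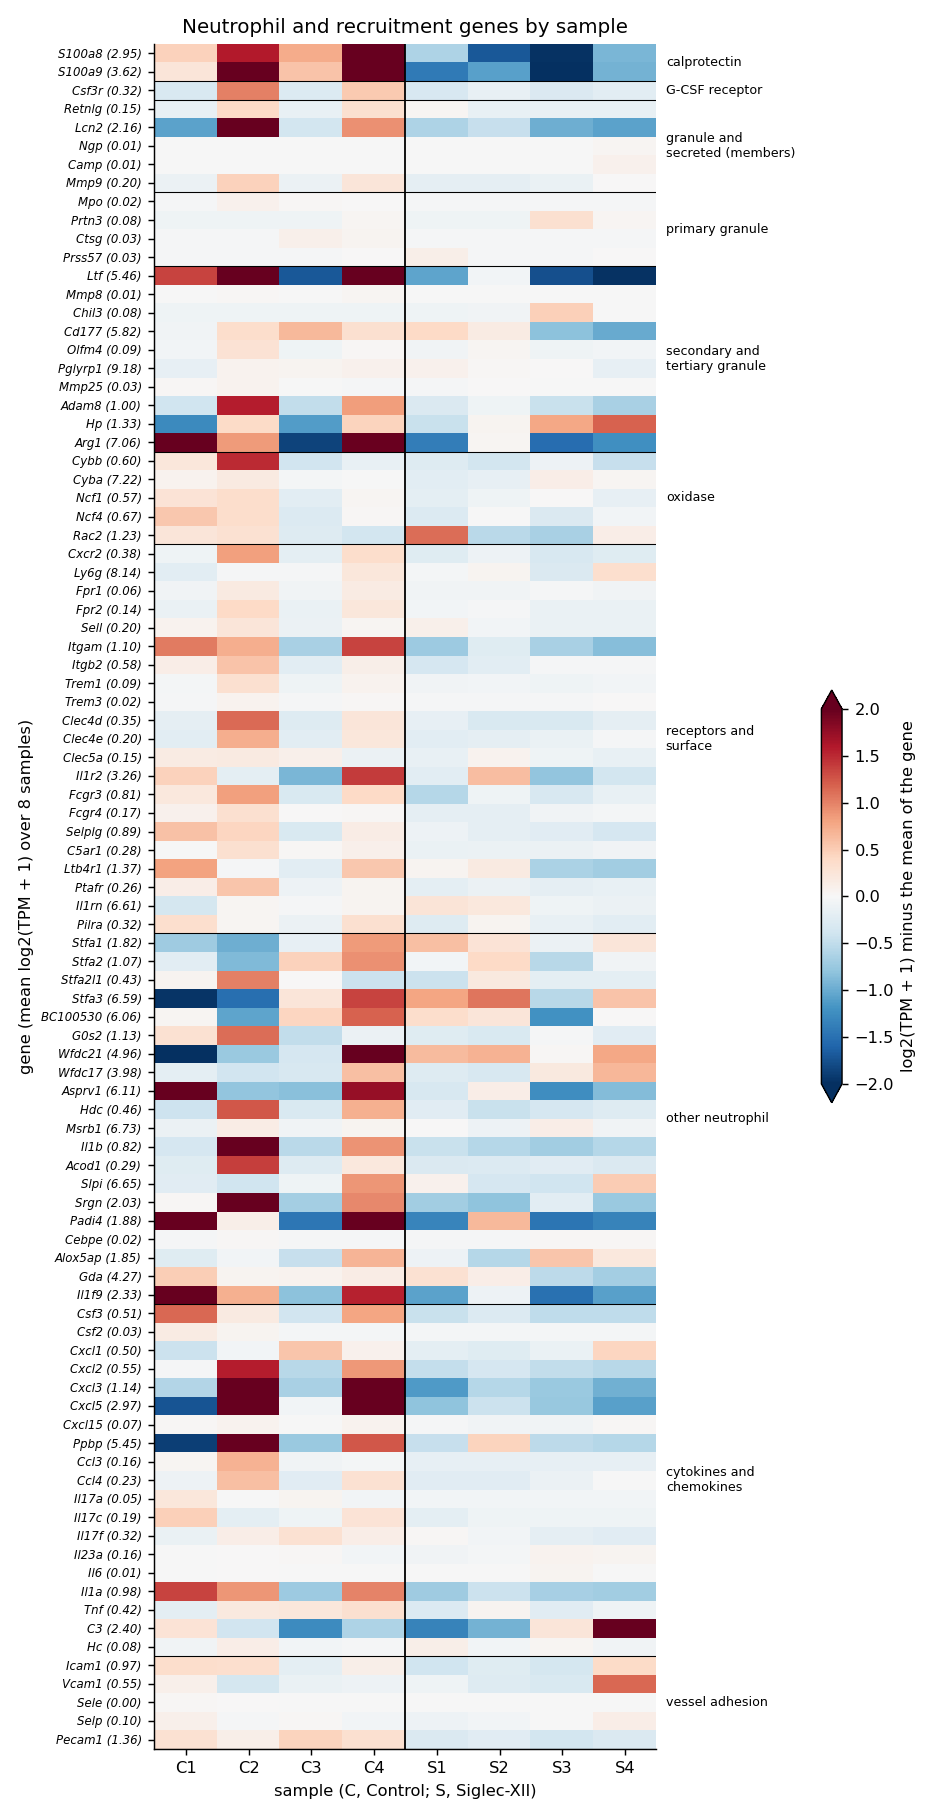
Colours give log2(TPM + 1) minus the mean of the gene over the 8 samples, from -2 (blue) to 2 (red), for the members and for genes of the neutrophil and recruitment lists (rows, with the mean in parentheses and the roles at the right) in Control (C1 to C4) and Siglec-XII (S1 to S4) samples. Red cells of low genes such as Cxcr2, Il1b, Hdc and Cxcl2 stand in C2 and C4, whereas only S100a8 and S100a9 are also red in C1 and C3 and blue in all of S1 to S4 among the members.

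Over the whole neutrophil list, Control 2 and Control 4 were the highest samples in 16 of 64 genes, of which 14 were among the 37 genes below the filter. The share in all genes above 0 was 7.07%, and the pattern was picked after the values were seen. Some of the 14, such as Cxcr2 and Il1b, were above 0 in all 8 samples. Others, such as Fpr1 and Trem1, did not reach 1 TPM in any sample (at most 0.18 and 0.33 TPM). Among the 27 genes tested the pattern was found in 2 (Ltf and Srgn), against 10.1% of all genes tested.

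Some of the chemokines that draw neutrophils into tissue were high in the same 2 samples. In 6 of 20 cytokines and chemokines (Cxcl2, Cxcl3, Cxcl5, Cxcl15, Ppbp and Ccl4) Control 2 and Control 4 were the highest, against 7.07% of all genes above 0. Here too the pattern was picked after the values were seen. Cxcl1, also a ligand of Cxcr2, was instead highest in Control 3 (1.05) and Siglec-XII 4 (0.94), and its r with Csf3r was 0.01. Ccl3 was highest in Control 2 (0.86) and Control 1 (0.20) and listed at 0 in every Siglec-XII sample. Cxcl3, a ligand of Cxcr2, was at 3.40 in Control 2 and 3.50 in Control 4, and at 0.55 or less in Control 1 and Control 3 and at 0 to 0.57 in Siglec-XII. Cxcl5, another ligand, was at 1.24, 5.80, 2.92 and 5.02 in Control 1 to 4 and at 1.89 to 2.54 in Siglec-XII. Only Cxcl5, Ppbp and C3 of the 20 genes passed the filter, and none was called (adjusted P = 0.515, 0.748 and 0.648 with limma). Csf3, the ligand of Csf3r, was instead highest in Control 1 (1.66) and Control 4 (1.30), at 0.68 and 0.12 in Control 2 and 3, and at most 0.23 in Siglec-XII. Among the cytokines that induce S100a8 and S100a9 in epithelium, Il22 was listed at 0 in every sample and Il17a did not exceed 0.28. Il17f was at 0.19 to 0.62 in controls and 0.09 to 0.34 in Siglec-XII, and Il17c at 0 to 0.66 and 0 to 0.10. Il1a was at 0.25 to 2.33 in controls and 0.27 to 0.55 in Siglec-XII, and Tnf at 0.23 to 0.74 and 0.15 to 0.47. Il17f, Il17c, Il1a and Tnf were lower on average in Siglec-XII, while Il23a and Il6 were each 0.01 higher. All of these cytokines were below the filter.

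Of the adhesion molecules by which vessels hold neutrophils, Sele and Selp were near 0 and Icam1 did not pass the test. Pecam1, an endothelial protein of the cell junctions that leukocytes cross, was at 1.67, 1.47, 1.80 and 1.67 in Control 1 to 4 and at 1.07, 1.13, 0.99 and 1.07 in Siglec-XII 1 to 4, without overlap. This separation was found in 4.06% of all genes tested. The difference of Pecam1 was -0.59 (standard error 0.123, unadjusted P = 0.000973, adjusted P = 0.515 with limma). Control 1 and Control 3 were as high in Pecam1 as Control 2 and Control 4.

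The receptors and signal partners of calprotectin showed no call. Tlr4 and its co-receptor Ly96, Cd14, Bsg, Cd36, Myd88 and Ticam1 passed the filter, and their differences ran from -0.40 for Cd14 to 0.30 for Ly96, with adjusted P values from 0.515 to 0.998 with limma. Tlr4 was at 2.89 to 3.50 in controls and at 2.99 to 3.32 in Siglec-XII. Ager, the receptor for advanced glycation end products, was below the filter (at most 0.25).

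Of 16 other S100 genes 14 passed the filter. At unadjusted P 2 were lower and 2 higher, against 7.67% and 1.19% of all genes tested, and none had an adjusted P below 0.515 with limma. The lower genes were S100a11 (-0.54, standard error 0.193) and S100a7a (-1.92, standard error 0.808), a psoriasin relative of squamous epithelium that was highest in Control 1 (5.73). The higher genes were S100a6 (0.29, standard error 0.118) and S100a1 (0.27, standard error 0.115). S100a6 was the most abundant S100 gene at 11.59 to 12.29. The median of the 14 differences was -0.06, against -0.15 for all genes tested, and in none of the 14 were all Siglec-XII samples below all controls, against 4.06% of all genes tested. S100a10, the partner of annexin A2, had the opposite separation, with 9.47 to 9.82 in controls and 9.83 to 10.09 in Siglec-XII (0.23, standard error 0.105, adjusted P = 0.515 with limma), against 1.05% of all genes tested.

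Genes that colon epithelium induces in inflammation did not run one way. Of 14, 10 passed the filter, 2 were lower (Duoxa2, -0.68, and Tgm2, -0.57) and 2 higher (Lyz1, 1.10, and Saa2, 0.44) at unadjusted P, each with an adjusted P of 0.515 with limma. Of all genes tested, 7.67% were lower and 1.19% higher at unadjusted P. Reg3b and Reg3g, antimicrobial lectins that rise in colitis, were at or below 0.73 in all samples. Nos2, also below the filter, was at 0.44 to 0.73 in controls and 0.06 to 0.43 in Siglec-XII, without overlap. This separation was found in 2.97% of all genes above 0. With the mean of S100a8 and S100a9, r for Nos2 was 0.70, and 0.91 without Control 2 and 4, but 0.01 after the group means were subtracted. Nos2 was picked for a separation that the pair shares, so nothing is read from the first 2 values. Saa2 and Lyz1 had the opposite separation, against 1.05% of all genes tested. Saa3, an acute-phase protein, was at 4.05 and 6.77 in Siglec-XII 3 and 4 and at 0.82 to 1.28 in the other 6 samples, whereas Lcn2 was high in Control 2 and 4. Of 10 transcription factors of granulocyte genes 9 passed the filter and 1, Nfkb1 (-0.52, standard error 0.206, adjusted P = 0.515 with limma), was lower at unadjusted P. Cebpa, Cebpb and Cebpd, whose family binds the C/EBP letters shown above, differed by -0.24, -0.02 and -0.03. Spi1, which encodes PU.1, was below the filter, at 0.47 to 1.05 in controls and 0.27 to 0.56 in Siglec-XII.

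Mouse Siglecs, the endogenous family of the transgene's product, were low. None of the 9 genes passed the filter, and no value exceeded 0.87. Siglece, an inhibitory Siglec of mouse neutrophils and macrophages, was at 0.22 to 0.63 in controls and 0.03 to 0.20 in Siglec-XII, without overlap. It was the only 1 of the 9 genes with this separation, which was found in 2.97% of all genes above 0.

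**Figure D4:**
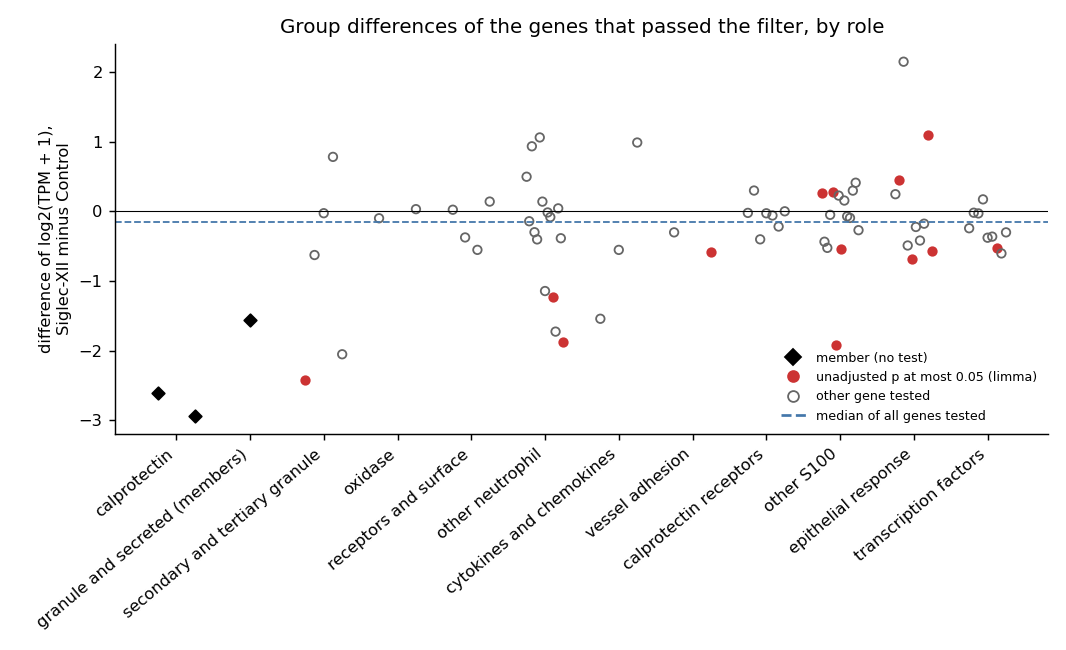
Difference of log2(TPM + 1), Siglec-XII minus Control, on the vertical axis for genes that passed the filter, by role on the horizontal axis. Diamonds are members, filled circles have an unadjusted P of at most 0.05 with limma, and the dashed line is the median of all genes tested (-0.15), with S100a8 (-2.61) and S100a9 (-2.94) far below it and the calprotectin receptors between -0.40 and 0.30.

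Markers of other cell types moved with some of these values, and their part in the results was not tested. All 18 markers of squamous epithelium, which lines the anal canal, passed the filter, and their summed TPM was 29201, 2973, 2664 and 16539 in Control 1 to 4 and 1463 to 7902 in Siglec-XII. All 18 were lower on average in Siglec-XII, against 78.1% of all genes tested, and 1 of them (Dsg3) at unadjusted P, against 7.67%. Control 4, the highest sample for S100a8 and S100a9, had the highest sum after Control 1, which was the lowest control for both genes. Siglec-XII 2, above Control 2 and Control 3 in this sum, was below them in both genes. Ltf, Il1f9, Arg1, Padi4 and S100a7a were all high in Control 1 and Control 4. Adipocyte markers had summed TPM of 10.8, 50.7, 6.20 and 44.0 in Control 1 to 4 and 7.64 to 29.9 in Siglec-XII. In 4 of 5 Control 2 and Control 4 were the highest samples, as for Csf3r, against 7.07% of all genes above 0. The pattern was picked after the values were seen, so nothing is read from that count.

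Among leukocytes, the 11 macrophage and monocyte markers summed to 19.5 to 58.5 TPM in controls and 14.9 to 35.6 in Siglec-XII, and 2 of 5 tested (C1qb and C1qc) were lower at unadjusted P. Control 1 had the highest sum and Control 2, the highest sample in Csf3r, was at 21.7. Eosinophil markers (at most 0.554 summed TPM, Epx at 0 in every sample) and T cell markers (1.11 to 2.57) had no gene tested. B lineage markers summed to 17.7 in Control 1 and 0.944 to 5.98 elsewhere, and mast cell markers to 8.95 to 17.4. Red cell markers, a sign of blood in the tissue, summed to 8.30 to 357 in controls and 44.6 to 236 in Siglec-XII. They were highest in Control 1 and low in Control 2 (32.0) and Control 4 (48.4), and none of the 4 tested was called. Of 7 smooth muscle markers 3 (Des, Cnn1 and Myh11) were lower at unadjusted P, and of 10 colon epithelium markers 1 (Lgr5). For these counts and that of the macrophage markers, the share of all genes tested was 7.67%.

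**Figure D5:**
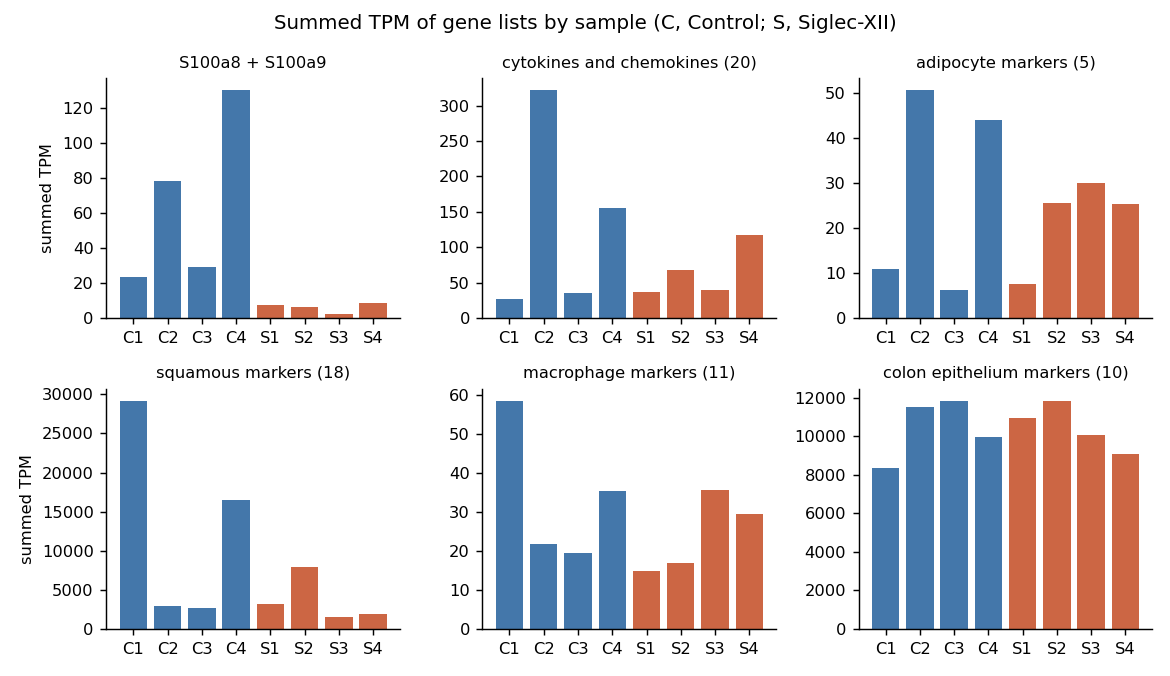
Summed TPM (vertical axes, each with its own range from 0) of S100a8 and S100a9 and of 5 gene lists in each Control (C1 to C4) and Siglec-XII (S1 to S4) sample. S100a8 and S100a9 sum to 23.2 to 130 in controls and 2.21 to 8.48 in Siglec-XII, the cytokines and adipocyte markers peak in C2 and C4, and the squamous markers in C1 and C4.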

How the data were processed

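The colon RNA of 8 samples was sequenced from both fragment ends (100 bases each). Values were deposited by the authors as log2(TPM + 1), 1 per gene and sample, and per the labels kallisto 0.45.0 and GRCm38 were used (submitters' processing notes), whereas the Methods of the paper name another kallisto version and a human reference. The library kit is one for total RNA in the labels and one for mRNA in the Methods. The counts the study tested with DESeq2 were not used here.

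The members and gene lists were chosen with earlier results of these data known. Symbols were taken from the row names, and of rows with the same symbol (718 repeats) the one highest on average was kept. For the test, 13164 genes whose TPM was 1 or more in 4 or more samples were fitted with limma 3.58.1 (lmFit, eBayes with trend) in R 4.3.3, with Benjamini-Hochberg adjustment over all of them. The fit was tested on simulated data. The call limits were an adjusted P of 0.05, or an unadjusted P of 0.05 alone or with a fold-change of 2. Differences are of group means, with the standard error from both variances for members and from limma for other genes. Correlations used Python 3.11.15, numpy 2.4.6 and scipy 1.17.1, and figures matplotlib 3.10.9.

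Named were the members, up to 5 genes of each list past unadjusted P and its 3 genes highest on average, and the 10 genes most like S100a8 and S100a9 on each measure. All other genes of the lists were named after their values were seen. Gene positions and windows of 31 bases are from GENCODE annotation of GRCm38, and promoters from RefSeq. The alternatives changed the TPM limit (to 5, or no limit), the pseudocount (to 0.1) or the scaling (quantile normalization, median centring), added array weights or the sample number as a block, or left samples out. Leaving out Control 2 and 4 together was added after their values were seen. TPM keeps no depth, so the number of samples limits the precision. The values of 1 gene of the lists are not reported here.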

Additional observations from a re-analysis of the deposited data

Results flagged for a closer look

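In 11 of 114 groups of 4 samples, 1 sample stood apart by the gap to its nearest neighbour as a share of the range of the group. For continuous values chance alone would mark about 5.7 groups, but many values here were tied at 0, so no excess is read from the count. In 7 of the 11 groups the other 3 samples were all listed at 0, so the share was 1: Retnlg in Siglec-XII 1 (0.19), Ngp and Camp in Siglec-XII 4 (0.05 and 0.09), Fpr1 in Siglec-XII 3 (0.05), Trem3 in Siglec-XII 4 (0.03), and Prss57 and Prtn3 in Control 4 (0.04 and 0.12). The share was 0.840 for Pglyrp1 in Control 1, 0.888 for Ppbp in Siglec-XII 2, 0.904 for S100a10 in Control 1 and 0.847 for Vcam1 in Siglec-XII 4. S100a8 and S100a9 were not among them in either group.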

How the results depend on the processing

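The differences of S100a8 (-3.09 to -1.90) and S100a9 (-3.35 to -1.88) kept their direction in all 14 alternatives, and the S100a9 difference moved by more than the spread between samples only without Control 2 and 4 (-1.88). Leaving out single samples gave -2.90 to -2.24 and -3.35 to -2.48. Without Control 2 and 4 the Csf3r and Retnlg differences turned to 0.05 each, and after median centring that of Retnlg to 0.0018 and that of Mmp9 from -0.24 to -0.027. With a pseudocount of 0.1 the differences were larger, -1.34 for Csf3r (-0.48 as reported), -0.89 for Retnlg (-0.21) and -1.01 for Mmp9 (-0.24). The median correlation of the other members with the pair was 0.72, 0.31 after median centring (which gives Ngp and Camp, listed at 0, the reverse of each sample's shift), -0.0787 without the 2 farthest samples, and 0.66 to 0.77 with single samples left out.

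The 5 genes at adjusted P became 3 at a TPM filter of 5 or with none, 18 with array weights (12 higher, 6 lower), 2 without Siglec-XII 3 and 4, 3 without Control 2 and 4, and 2 to 6 with single samples left out. The 121 genes at unadjusted P with a fold-change of 2 (32 higher, 89 lower) became 63 at a TPM filter of 5, 204 with a pseudocount of 0.1, 77 after quantile normalization (36 higher, 41 lower), 74 after median centring (40 higher, 34 lower), 54 without Siglec-XII 3 and 4 (31 higher, 23 lower), 107 without Control 2 and 4 (55 higher, 52 lower), and 65 (without Siglec-XII 3) to 324 (without Control 3) with single samples left out. The 3 neutrophil genes became 1 at a TPM filter of 5, 8 with no filter, 1 without Siglec-XII 3 and 4, 3 without Control 2 and 4 (all higher, where the main 3 were lower), and 1 to 8 with single samples left out, 4 of them (3 higher) without Control 4. Apart from the smaller sets of genes and samples, the cause was not tested.

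Same-numbered samples did not deviate together (r = -0.16, -0.20, 0.10 and -0.00 for numbers 1 to 4). No pairing by number was therefore seen, although these values cannot exclude one. With the number as a replicate block the counts were 4, 139 and 3, within 1.5 times those without it. The number of samples, the unknown depth, and the many genes at or near 0 limit all comparisons.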
